A study of Mus musculus with 2 samples.

Results

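The genes described here are 40 genes of mitosis and of the kinetochore, followed in cultured mouse splenic B cells that lack or carry Nedd4. They were chosen by name, as the lines of both expression files whose gene name was on a fixed list, and all 40 were found among 23288 listed genes, with 1 line each. RNA was measured in 1 Nedd4-/- library and 1 Nedd4+/+ library, both from splenic B cells of fetal liver chimeric mice on a mixed B6 and 129 background backcrossed to B6. In such chimeras the blood cells derive from transplanted fetal liver cells. The labels give neither the number of animals behind a library nor the cells that the hosts still had. Cells of both genotypes had been grown for 72 hours with lipopolysaccharide (LPS), a bacterial product that activates B cells, and interleukin 4 (IL4), a culture that drives division and switching to IgG1. RNA freed of ribosomal RNA was sequenced. The 2 libraries corresponded to 6.17 gigabases of reads for Nedd4-/- and 8.40 gigabases for Nedd4+/+. With 1 library per genotype no difference has a replicate check, no p-value is given, and intervals cover counting error only.

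Mitosis is entered when cyclin A and cyclin B activate the kinase Cdk1, which Cdc25 phosphatases help to switch on. Kinetochores, protein assemblies on the centromere, then bind spindle microtubules, and the spindle checkpoint delays the separation of chromosomes until all kinetochores are attached. Once it is satisfied, Cdc20 activates the anaphase-promoting complex (APC/C), which marks cyclin B and securin for destruction and so frees separase to cut cohesin. Most of these genes are transcribed in G2 and mitosis, under the MuvB complexes with B-Myb and FoxM1, and their RNA is low in resting B cells and high in B cells that divide after LPS and IL4.

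The promoters show what many of these genes share beyond their role. The cell cycle genes homology region (CHR), a short element that MuvB complexes bind, was searched as TTTGAA or TTCGAA, and the CCAAT box, bound by NF-Y, as CCAAT, each on both strands. A match of these kinds may share an end letter with another. The promoter table of RefSeq on build GRCm38.p6 held 32 of the 40 genes in 34 windows of 250 bases before to 50 after the start, with 2 windows each for Prc1 and Bub3. The 6 stretches printed here belong to the genes of highest mean level that hold a CHR match within 100 bases of the start, and run from 120 bases before the start through the first 20 transcribed bases, 5′ to 3′ along the gene. Capitals mark CHR and CCAAT box matches on either strand.
Top2a, chr11:99024170-99024309, minus strand: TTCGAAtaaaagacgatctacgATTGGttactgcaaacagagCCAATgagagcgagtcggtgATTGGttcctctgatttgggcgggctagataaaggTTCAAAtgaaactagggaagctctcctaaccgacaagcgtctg
Mki67, chr7:135716360-135716499, minus strand: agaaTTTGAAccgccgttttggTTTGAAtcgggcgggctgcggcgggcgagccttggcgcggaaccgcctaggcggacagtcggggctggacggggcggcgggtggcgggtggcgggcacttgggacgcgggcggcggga
Cdc20, chr4:118437324-118437463, minus strand: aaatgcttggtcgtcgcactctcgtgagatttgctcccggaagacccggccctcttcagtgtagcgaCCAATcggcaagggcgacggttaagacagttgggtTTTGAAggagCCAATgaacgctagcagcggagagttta
Bub3, chr7:131560250-131560389, plus strand: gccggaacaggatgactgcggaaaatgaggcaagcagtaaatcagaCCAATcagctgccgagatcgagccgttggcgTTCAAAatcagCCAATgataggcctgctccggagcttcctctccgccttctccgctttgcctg
Kif11, chr19:37376262-37376401, plus strand: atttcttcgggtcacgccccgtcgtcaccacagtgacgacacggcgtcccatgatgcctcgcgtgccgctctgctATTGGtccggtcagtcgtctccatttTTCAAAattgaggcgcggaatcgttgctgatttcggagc
Ccnb2, chr9:70421535-70421674, minus strand: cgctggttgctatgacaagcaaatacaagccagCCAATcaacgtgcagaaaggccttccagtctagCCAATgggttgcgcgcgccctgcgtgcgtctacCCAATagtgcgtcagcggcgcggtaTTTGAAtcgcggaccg
In Top2a, Cdc20, Bub3 and Kif11 a CHR match lies just before the start with a CCAAT box upstream of it, and in Ccnb2 the CHR match begins at transcribed base 5, behind 3 CCAAT boxes. In Mki67 the CHR matches begin 116 and 98 bases before the start, and no CCAAT box lies in the stretch shown.

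A CHR match was present in 27 of the 34 windows, or 79.4%, where 19.2% of all 32851 promoter windows of the same length held one. A CCAAT box match was present in 26 of 34 (76.5%), where 37.4% of all windows held one, and both were present in 24 of 34 (70.6%), where 7.52% of all windows held both. The CHR matches sat close to the start: 24 windows had one that began within 50 bases of it, 70.6% against 5.31% of all windows. In the 22 windows where a CCAAT box lay upstream of such a CHR match, the first letters of the nearest such pair were 34 bases apart in the median (9 to 201). The spacing was 35 bases in Top2a, Cdc20, Cdc25b and Ttk. A pattern of E2F type, TTCCCGC on either strand, was found in 0 of 34 windows and in 4.60% of all windows. Only these exact letters were searched, and at that share few of 34 windows would hold them. The 0 therefore does not show that E2F sites are lacking. Of the 32 genes, 7 had no CHR match in the window, namely Birc5, Ccnb1, Cenpe, Mad2l1, Nuf2, Nusap1 and Pttg1, which says only that these letters are not in it. These shares describe reference sequence and carry no test.

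**Figure D1:**
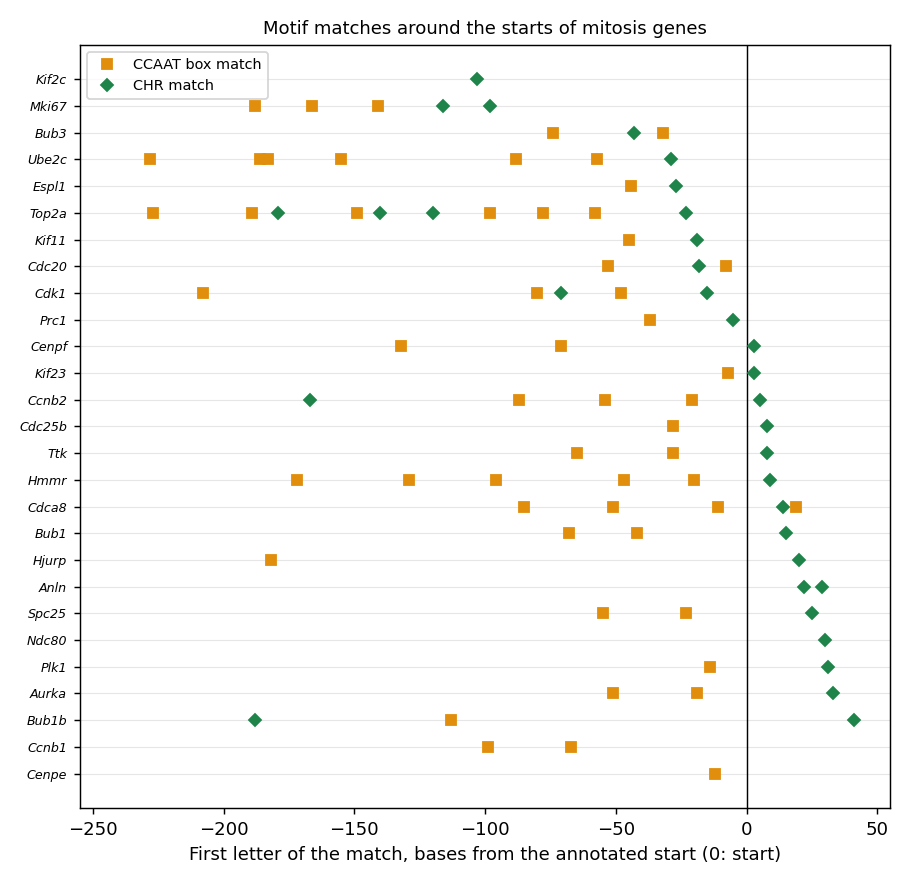
Position of CHR matches (diamonds) and CCAAT box matches (squares) in bases from the annotated start for the 27 genes with a match, drawn for 1 window per gene and ordered by the CHR match nearest to the start. Most CHR matches lie within 50 bases of the start, and most CCAAT boxes lie upstream of them.

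All 40 genes were expressed in both libraries. Levels are given in RPKM, which counts reads per length of transcript and per size of the library, so that genes can be set side by side. They ran between 2.41 and 84.4 RPKM in the Nedd4-/- library and between 2.89 and 121 RPKM in the Nedd4+/+ library, with Foxm1 lowest and Top2a highest in both. Among the 9405 genes with a mean of at least 1 RPKM, called tested genes below, 36 of the 40 lay above the median level. The summed level of the 40 genes was 599 RPKM for Nedd4-/- and 799.7 RPKM for Nedd4+/+. Their order was nearly the same in both, with a Spearman correlation of 0.98 across the 40 genes, which are not independent replicates.

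**Figure D2:**
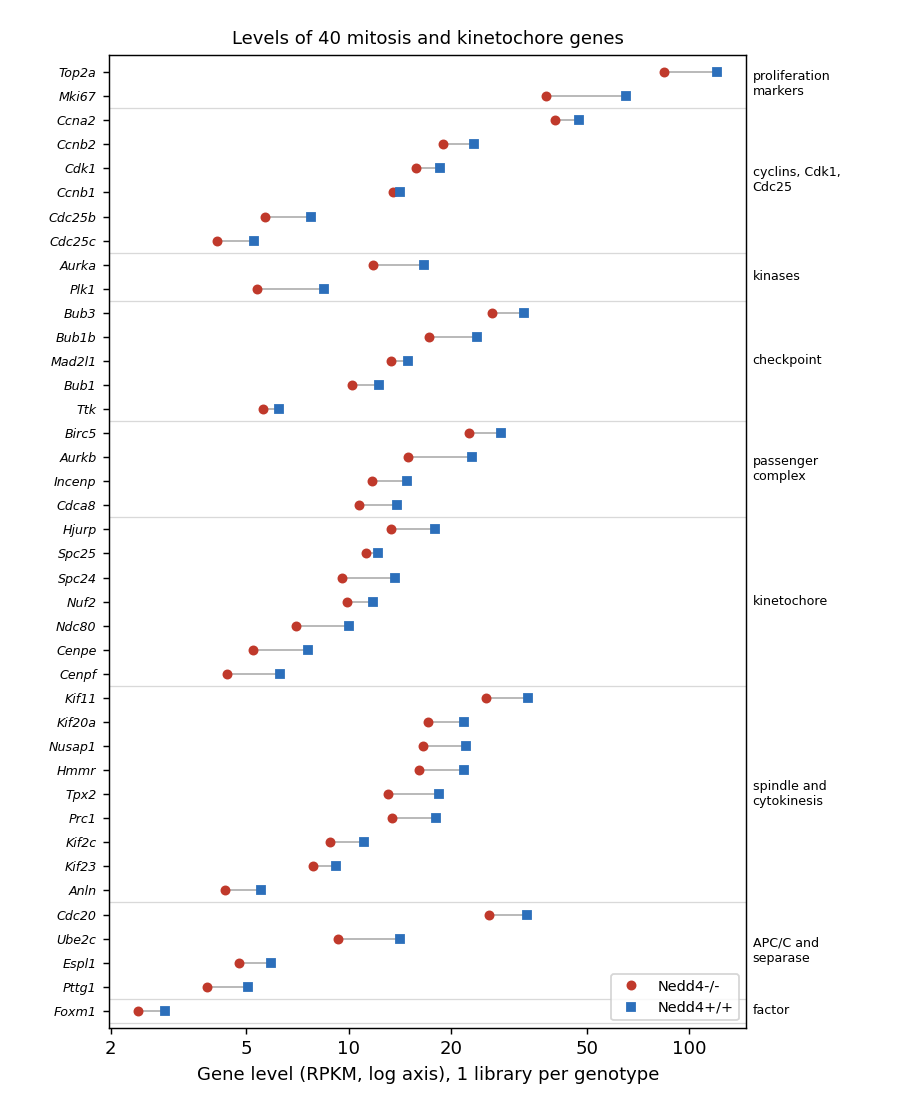
Level of each of the 40 genes in RPKM (log axis) in the Nedd4-/- library (circles) and the Nedd4+/+ library (squares), 1 library each, grouped by role. Every circle lies left of its square, by least in Ccnb1.

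The gene named in the labels was checked first. Nedd4 (chromosome 9) had 1.95 RPKM in the Nedd4-/- library, against 7.59 RPKM in the Nedd4+/+ library. That is a difference of -1.54 on the log2 scale. The labels do not say which part of the gene the allele lacks. Ratios are log2 of Nedd4-/- over Nedd4+/+ after adding 1 RPKM to each. Over all tested genes their median was -0.31, the central 90% ran from -0.74 to 0.056, and 92.7% were below 0. The scaling uses every mapped read, while listed transcripts of known length held 24.4% of the read bases in the Nedd4-/- library but 32.6% in the Nedd4+/+ library. A relative value below is therefore the log2 ratio minus the median of all tested genes. The labelled cell type was borne out by its markers, with all 8 B cell markers expressed, for example (Nedd4-/- against Nedd4+/+) Cd79b at 155 against 183 RPKM. Markers of other cells were low, with no marker at 0 in either library: 9 T cell markers summed to 3.61 against 2.59 RPKM, 10 myeloid markers to 6.24 against 5.83 RPKM, and 12 erythroid and megakaryocyte markers to 5.24 against 4.90 RPKM, in each pair Nedd4-/- against Nedd4+/+. The 6 plasmablast genes summed to 222 against 431 RPKM, and the 5 of them that were tested all lay below the median ratio of all genes. Xist, which coats the silenced X in female cells, had 0.0958 RPKM (Nedd4-/-) and 23.7 RPKM (Nedd4+/+). On the Y, in the same order, Ddx3y had 10.6 and 2.63 RPKM and Eif2s3y 18.8 and 5.14 RPKM. Uty had 5.23 and 1.62 RPKM and Kdm5d 3.95 and 1.18 RPKM. By these genes the Nedd4+/+ cells were of mixed sex, and the Nedd4-/- cells mainly male. Whether pooled donors or remaining host cells gave this mixture was not tested. Sex of the cells and genotype therefore cannot be told apart in any value below. The part of these markers in the results was not tested. In bulk RNA, fewer cells in mitosis and less RNA per such cell cannot be told apart either.

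The first comparison asked whether the mitotic programme differed between Nedd4-/- and Nedd4+/+ cells. All 40 genes had a lower RPKM in the Nedd4-/- library, where 92.7% of all tested genes did. That direction belongs to the RPKM scale: with libraries scaled to equal length-weighted sums over genes, the median log2 ratio of the 40 was 0.047. Their median log2 ratio was -0.34, next to -0.31 for all tested genes. None of the 40 was at least 2-fold lower and none at least 2-fold higher, where 1.15% of all tested genes were lower by that much and 0.138% higher. Relative to the median of all genes the median of the 40 was -0.023, with 23 below and 17 above, and again none was past 2-fold, where 0.223% and 0.276% of all tested genes were lower and higher by that much. The sign of this small median turned under other scalings, which gave 0.014 to 0.020 with 19 of 40 below. With 0.1 RPKM added it was 0.013, also with 19 below. Counts of genes below or above the median in the groups that follow use the deposited scale with 1 RPKM added. The genes thus lay where most genes lay, and 39 of 40 fell inside the central 90% of all ratios, the exception being Mki67. Across tested genes the log2 ratio went down with mean level (Spearman correlation -0.37, across genes). Adding 1 RPKM itself draws the ratios of low genes towards 0, and its part in this trend was not tested. With 0.1 RPKM added, the median of all tested genes was -0.38 in place of -0.31. Against tested genes with a mean level between the 10th and 90th percentile of the 40, their median was 0.044 with 18 of 40 below.

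**Figure D3:**
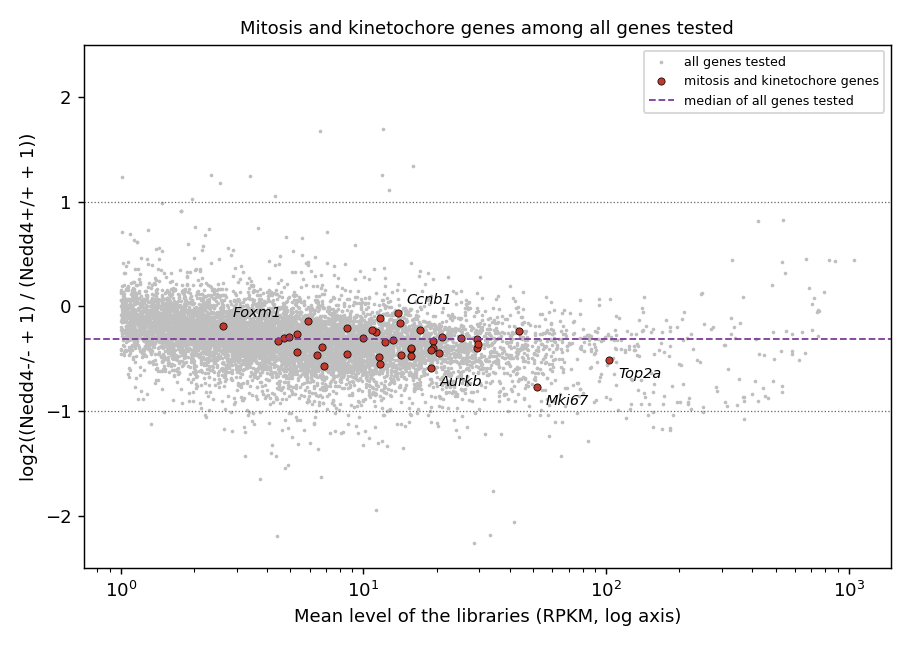
Log2 ratio of Nedd4-/- over Nedd4+/+ (1 RPKM added) against mean level in RPKM (log axis) for all 9405 tested genes (grey) and the 40 genes (red circles); 4 genes beyond 2.5 are not drawn. The 40 genes scatter around the dashed median of all genes, and none reaches the dotted 2-fold lines.

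Within this narrow range the genes spread to both sides. Counting intervals of the ratio without pseudocount, exact Clopper-Pearson 95% intervals from recovered read pairs, were set against the median of all tested genes on the same scale, -0.39. They lay wholly below it for 8 of the 40 genes, where 23.2% of all tested genes with a known length did so, and wholly above it for 9, where 18.8% did so. Both counts, read against 40, are near those shares. Against equal RPKM, the interval was wholly below 0 for 37 of 40 and for 74.4% of all. Intervals are narrower for genes with more read pairs, and 36 of the 40 lay above the median level of tested genes. The shares of all genes were not matched for level. No excess or lack among the 40 is therefore drawn from these counts of intervals. By size, 13 genes were at least 0.1 below the median of all genes on the log2 scale, where 31.5% of all tested genes were. A further 6 were at least 0.1 above it, where 30.8% of all were. This split rests on the scale: with equal length-weighted sums or upper quartile scaling, 10 genes were below and 9 above by that step, and with 0.1 in place of 1 RPKM added 11 were below and 10 above. The read pairs behind a gene ran between 87 and 13449 in the Nedd4-/- library and between 156 and 27327 in the Nedd4+/+ library, fewest for Pttg1 and most for Top2a in the Nedd4-/- and Mki67 in the Nedd4+/+ library.

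**Figure D4:**
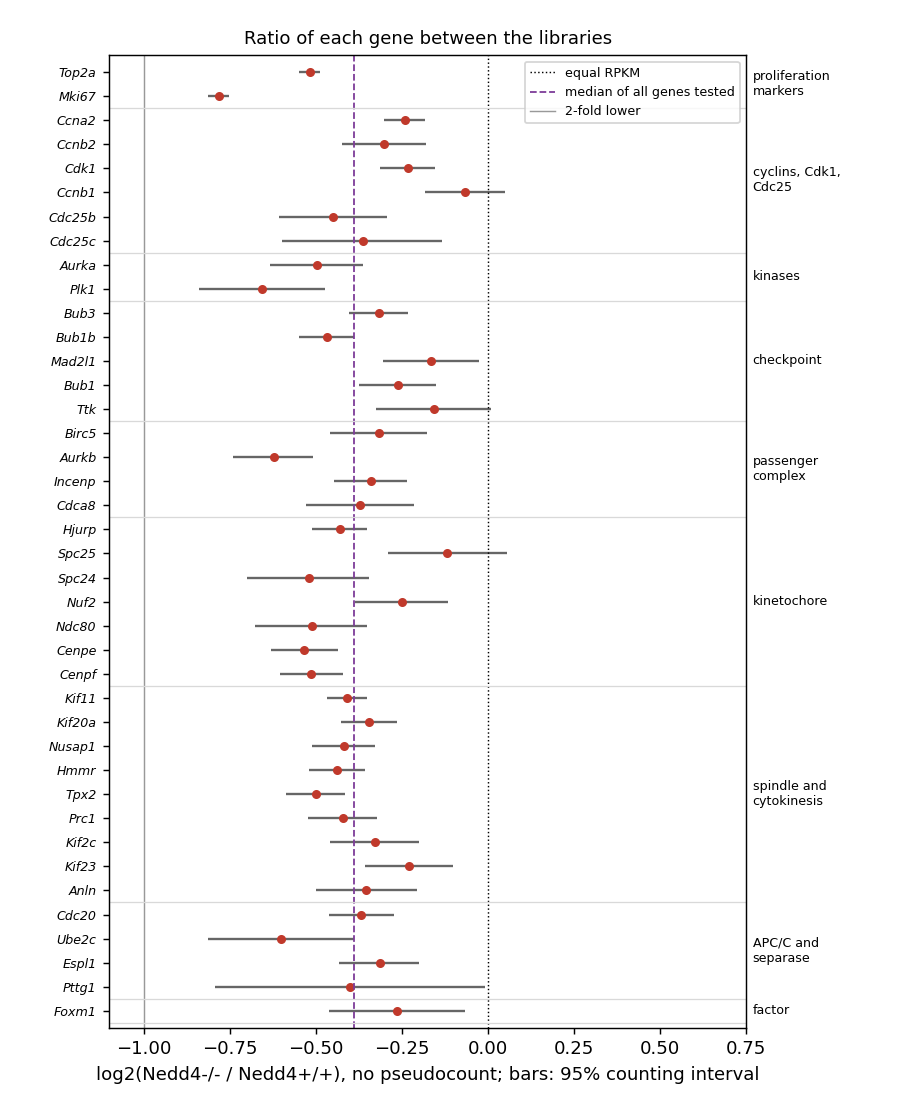
Log2 ratio of Nedd4-/- over Nedd4+/+ without pseudocount for each gene (circles) with its exact 95% counting interval (bars), grouped by role. The dashed line is the median of all tested genes at -0.39, and Mki67, Top2a, Plk1 and Aurkb lie left of it while Ccnb1, Spc25, Ttk and Mad2l1 lie right of it.

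Both proliferation markers lay below the median of all genes. Mki67, whose protein coats mitotic chromosomes and marks cycling cells, stood at 38.0 RPKM in the Nedd4-/- library, against 65.3 RPKM in the Nedd4+/+ library. Its log2 ratio was -0.77 and its relative value -0.45, the lowest of the 40, with a counting interval of -0.81 to -0.75 for the ratio without pseudocount. A ratio as low or lower was found in 4.30% of tested genes, and Mki67 is here the extreme of 40 genes. Top2a, the topoisomerase that untangles sister chromatids, stood at 84.4 RPKM in the Nedd4-/- library, against 121 RPKM in the Nedd4+/+ library, a relative value of -0.20. Neither interval reached up to that median, where 23.2% of all tested genes with a known length had such an interval. Both genes stood lower than the set as a whole.

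Cyclins and Cdk1 had relative values above 0, with that of Ccnb2 close to it. Ccnb1, cyclin B1, was nearly equal, at 13.5 RPKM in the Nedd4-/- library, against 14.2 RPKM in the Nedd4+/+ library. Its relative value of 0.25 was the highest of the 40, and its interval of -0.18 to 0.051 held equal RPKM. Ccnb2, cyclin B2, stood at 19.0 against 23.4 RPKM (0.025). Pairs of this kind give Nedd4-/- against Nedd4+/+, with the relative value in parentheses. Ccna2, cyclin A2, was the most abundant of the cyclins at 40.2 against 47.5 RPKM, and Cdk1, the mitotic kinase they activate, stood at 15.7 against 18.5 RPKM. Relative to all genes Ccna2 was at 0.077 and Cdk1 at 0.092, and the intervals of both, like that of Ccnb1, lay above the median of all genes. The interval of Ccnb2 held that median. Of all tested genes with a known length, 18.8% had an interval above that median. The phosphatases that activate Cdk1 lay close to that median: Cdc25b stood at 5.68 against 7.76 RPKM (-0.078) and Cdc25c at 4.10 against 5.27 RPKM (0.015). Of these 6 genes only Cdc25b was below the median of all genes.

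Both kinases of spindle assembly had relative values below 0, and the interval of 1 of them lay below the median of all genes. Plk1, which drives centrosome maturation and many later steps, stood at 5.36 RPKM in the Nedd4-/- library, against 8.44 RPKM in the Nedd4+/+ library, a relative value of -0.26 and an interval of -0.84 to -0.47. Aurka, the kinase of spindle poles, stood at 11.8 against 16.6 RPKM (-0.15). Its interval of -0.63 to -0.36 reached the median of all genes, while that of Plk1 lay below it. Tpx2, the activator of Aurora A on spindle microtubules, stood at 13.1 against 18.5 RPKM (-0.16), also with an interval below that median. Such an interval was found in 23.2% of all tested genes with a known length. Foxm1, the transcription factor of G2 and M genes, was the least abundant of the 40 at 2.41 against 2.89 RPKM. Its relative value was 0.12, and its interval of -0.46 to -0.066 held the median of all genes.

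Spindle checkpoint genes mostly lay above the median of all genes. Mad2l1, which encodes Mad2, the protein that sequesters Cdc20, stood at 13.3 RPKM in the Nedd4-/- library, against 14.9 RPKM in the Nedd4+/+ library (0.16). Ttk, the kinase Mps1 that starts the signal at kinetochores, stood at 5.58 against 6.22 RPKM (0.18). Bub1, a kinase of the outer kinetochore, stood at 10.2 against 12.2 RPKM (0.072). The intervals of these 3 genes lay above the median of all genes, where 18.8% of all tested genes with a known length did so. Bub3, the partner that brings Bub1 and BubR1 to kinetochores, was at that median, with 26.3 against 32.7 RPKM (0.0066). Bub1b, which encodes BubR1, the other inhibitor of the APC/C in the checkpoint complex, was the 1 gene of the 5 below it, at 17.2 against 23.8 RPKM (-0.13). The interval of Bub1b reached the median of all genes.

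The chromosomal passenger complex joins the kinase Aurora B to a scaffold and a pair of targeting subunits. Of its 4 genes, Aurkb had the lowest relative value. Aurkb, the kinase, stood at 14.9 RPKM in the Nedd4-/- library, against 23.0 RPKM in the Nedd4+/+ library. Its relative value of -0.28 was the second lowest of the 40, with an interval of -0.74 to -0.51. The scaffold Incenp stood at 11.7 against 14.8 RPKM (-0.0042), survivin, encoded by Birc5, at 22.5 against 28.0 RPKM (0.0078), and borealin, encoded by Cdca8, at 10.7 against 13.8 RPKM (-0.030). The intervals of Incenp and Birc5, -0.45 to -0.24 and -0.46 to -0.18, did not meet that of Aurkb, and that of Cdca8, -0.53 to -0.22, met it at its edge. How often intervals of other genes fail to meet was not counted. Intervals cover counting error only, and 23.2% of all tested genes with a known length lay wholly below the common median and 18.8% above.

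Kinetochore genes lay on both sides as well. The Ndc80 complex, which holds microtubules, has 4 subunits that are built in equal number. In the Nedd4-/- library they stood at 7.02 RPKM for Ndc80, 9.88 for Nuf2, 9.55 for Spc24 and 11.2 for Spc25. In the Nedd4+/+ library the same genes stood at 10.01, 11.7, 13.7 and 12.2 RPKM. RNA levels per length thus ran from 7.02 to 11.2 RPKM (Nedd4-/-) and from 10.01 to 13.7 RPKM (Nedd4+/+), with Ndc80 lowest in both. The number of protein subunits cannot be read from them. Relative values were -0.14 for Ndc80 and -0.17 for Spc24, against 0.085 for Nuf2 and 0.20 for Spc25. The intervals of Nuf2 and Spc25 lay above the median of all genes, while those of Ndc80 and Spc24 reached it. Cenpe, a kinesin that carries chromosomes to the spindle equator, stood at 5.24 against 7.59 RPKM (-0.15), and Cenpf, a large protein of the outer kinetochore, at 4.39 against 6.26 RPKM (-0.12). The intervals of both lay below the median. Of all tested genes with a known length, 23.2% had an interval below the median and 18.8% above it. Hjurp, the chaperone that loads the centromeric histone CENP-A, stood at 13.3 against 17.9 RPKM (-0.092).

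Spindle motors and cytokinesis genes lay close to all other genes. Kif11, the kinesin Eg5 that pushes spindle poles apart, was the most abundant of them at 25.3 RPKM in the Nedd4-/- library, against 33.6 RPKM in the Nedd4+/+ library (-0.082). Kif20a, a kinesin of the central spindle, stood at 17.1 against 21.7 RPKM (-0.015), and Prc1, which bundles its microtubules, at 13.4 against 17.98 RPKM (-0.084). Nusap1 and Hmmr, microtubule-binding proteins of the spindle, stood at 16.5 against 22.1 RPKM (-0.085) and 16.1 against 21.8 RPKM (-0.10). These values differ from the median of all genes by little more than 0.1. Kif2c, the kinesin MCAK that takes microtubules apart, stood at 8.80 against 11.1 RPKM (0.014), and anillin, encoded by Anln and part of the contractile ring, at 4.32 against 5.52 RPKM (0.019). Kif23, the motor of the centralspindlin complex, stood at 7.84 against 9.19 RPKM, and its relative value of 0.11 was the highest of the group. Of the 9 genes in this group, Tpx2 included, 6 were below the median of all genes.

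Genes that trigger anaphase included 1 with a larger difference. Cdc20, the APC/C activator, stood at 25.9 RPKM in the Nedd4-/- library, against 33.4 RPKM in the Nedd4+/+ library (-0.043). Ube2c, the ubiquitin-conjugating enzyme UbcH10 that works with the APC/C, stood at 9.31 against 14.1 RPKM, a relative value of -0.24 and an interval of -0.81 to -0.39. Pttg1, securin, stood at 3.84 against 5.07 RPKM (-0.013), and separase, encoded by Espl1, at 4.76 against 5.91 RPKM (0.048). The RNA of the inhibitor and that of the protease it holds back thus had like levels per length in each library. Amounts of protein cannot be read from this. The securin interval was the widest of the 40, -0.79 to -0.0090, for it rested on the fewest read pairs.

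Further genes of the pathway were taken from 6 lists of mitotic genes that are not among the 40. Of 141 such genes 138 were tested, 0 were at least 2-fold lower and 0 at least 2-fold higher, and their median relative value was -0.010. They were thus placed like the 40, with 72 below and 66 above the median of all genes. Condensin and cohesin genes, which fold chromosomes and hold sister chromatids together, had the lowest median of the 6 lists, -0.12, with 16 of 20 below the median of all genes. That value was -0.054 with equal length-weighted sums, -0.058 against genes of like level and -0.067 with 0.1 RPKM added. Ncapd2, a condensin subunit, stood at 17.3 against 28.1 RPKM (-0.35), the cohesin ring genes Smc3 at 7.96 against 12.9 RPKM (-0.32) and Smc1a at 8.45 against 13.4 RPKM (-0.29). Smc4, a core of condensin, was the most abundant at 36.7 against 49.96 RPKM (-0.12). Centred on 8 B cell markers in place of all genes, the median of the list was 0.024.

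The other lists had medians nearer to all genes. Kinetochore and centromere genes outside the 40 had a median of 0.045, with 14 of 34 below the median of all genes. Cenpl, of the inner kinetochore, stood at 2.56 against 2.19 RPKM (0.47), Mis18a, which primes centromeres for new CENP-A, at 9.81 against 9.64 RPKM (0.34), and Cenpv at 2.87 against 2.80 RPKM (0.34). Cenpa, the centromeric histone itself, was the most abundant at 15.2 against 19.7 RPKM (-0.036). APC/C genes had a median of -0.035, from Anapc5 at 32.1 against 46.9 RPKM (-0.22) to Anapc2, its catalytic cullin subunit, at 2.76 against 2.71 RPKM (0.33), with Anapc11, its RING subunit, at 1.52 against 1.69 RPKM (0.22). Other spindle genes had a median of -0.015. Numa1, which anchors microtubules at spindle poles, stood at 6.45 against 10.5 RPKM (-0.32), the kinesin gene Kif18b at 5.03 against 8.04 RPKM (-0.27) and the kinesin gene Kif2a at 4.54 against 4.57 RPKM (0.30), while Tacc3 was the most abundant at 18.1 against 22.3 RPKM. These lists thus spread to both sides of the median of all genes.

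Among other mitotic regulators the median was 0.013. The Cdk-binding proteins Cks1b and Cks2 lay apart, Cks1b at 21.9 against 31.7 RPKM (-0.20) and Cks2 at 14.6 against 13.0 RPKM (0.47). Ppp2r2a, a subunit of the phosphatase PP2A that opposes Cdk1, stood at 4.64 against 4.198 RPKM (0.43), and Depdc1a at 2.75 against 2.48 RPKM (0.42). Regulators of this programme, the MuvB subunits with their E2F, pocket protein, B-Myb and NF-Y partners, had a median of 0.068, with 8 of 20 below the median of all genes. Lin52, a MuvB subunit, stood at 1.89 against 1.74 RPKM (0.39), Nfya, the CCAAT-binding subunit of NF-Y, at 5.48 against 5.26 RPKM (0.36), and the repressor E2f8 at 3.63 against 3.62 RPKM (0.31). Rbbp4, a histone chaperone of the MuvB core, was the most abundant at 22.7 against 26.7 RPKM (0.084). Genes of S phase were set beside the 40 as the nearest other stage of the cycle: 51 replication genes had a median relative value of -0.028, against -0.023 for the 40. Of these replication genes Pole2, on chromosome 12, stood furthest, at 17.7 against 7.64 RPKM (1.43). On the other side Pold2, a subunit of DNA polymerase delta, stood at 12.1 against 21.3 RPKM (-0.46), while Rpa3, of the single-strand binding complex, stood at 11.2 against 11.0 RPKM (0.33). Pcna, the sliding clamp, was the most abundant at 59.6 against 70.4 RPKM (0.075). The 14 tested genes of the G1 cyclin list had a median relative value of 0.012, with 7 below and 7 above the median of all genes. Cdkn1b, the Cdk inhibitor p27, stood at 4.91 against 10.01 RPKM (-0.58), Cdkn1a, the inhibitor p21, at 2.49 against 2.30 RPKM (0.39), and Ccne2, cyclin E2, at 10.7 against 11.4 RPKM (0.22). Ccng1, cyclin G1, was the most abundant at 52.4 against 65.4 RPKM (-0.0019). No difference between the stages is drawn from the medians, since no test was possible.

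Position in the genome was examined because Nedd4 lies on chromosome 9, as do 5 of the 40 genes, Ccnb2, Kif23, Ttk, Anln and Spc24. In GENCODE M21, 16 protein-coding genes lie between Ccnb2 and Nedd4, 71 between Ttk and Nedd4, and 99 between Kif23 and Nedd4. The median relative value of the 5 was 0.025, that of the other 35 was -0.043, and that of all 502 tested genes of the chromosome was 0.0036. Among the 20 protein-coding genes on each side of Nedd4, 20 were tested, with a median of -0.018.

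The second comparison turned to the kb that the files list upstream of each gene start, where reads come from any transcript that begins or runs there. The level of such a window, in RPKM, was the deposited ratio multiplied back by the level of the gene. Upstream levels of the 40 genes had a median of 0.371 RPKM in the Nedd4-/- library and 0.214 RPKM in the Nedd4+/+ library. They were higher in the Nedd4-/- library at 29 of 40 genes, although the genes themselves were lower there. Most of these were low windows: of the 34 with a mean below 1 RPKM, 26 were higher in the Nedd4-/- library. The 6878 listed genes at or above the level of Foxm1, the lowest of the 40, had medians of 0.444 and 0.276 RPKM (Nedd4-/- and Nedd4+/+) and a higher Nedd4-/- level at 67.4% of them. The median difference, Nedd4-/- minus Nedd4+/+, was 0.0785 RPKM for the 40 and 0.0906 RPKM for those genes. Per window, 1 read pair is worth 0.0328 RPKM (Nedd4-/-) or 0.0241 RPKM (Nedd4+/+).

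A mean of at least 0.2 RPKM upstream was reached at 28 of the 40 genes, where 78% of genes at or above their lowest level did so. With 0.1 RPKM added, 8 of these 28 windows were higher in Nedd4-/- cells by 2-fold or more and 0 were lower by as much, where 19.8% of all such windows were higher and 0.794% lower. Their median log2 ratio was 0.35, against 0.41 for all such windows. The direction turned at higher levels. Among windows with a mean of at least 1 RPKM the median was -0.061 for the 6 of the 40 and -0.28 for all. The windows past 2-fold were those of Hjurp, Cenpe, Anln, Cdc25b, Nuf2, Cenpf, Kif23 and Spc24, and all but that of Hjurp were under 0.5 RPKM in both libraries. All but that of Hjurp were also below 0.2 RPKM in the Nedd4+/+ library. They passed the minimum only through their Nedd4-/- level, so nothing is drawn from 8 against 0. With no minimum, 9 of 40 windows were higher by 2-fold or more, where 19.2% of all windows were. The window of Anln, for example, held 0.446 RPKM in the Nedd4-/- library and 0.0494 RPKM in the Nedd4+/+ library, and that of Cenpf 0.386 RPKM in the Nedd4-/- library and 0.0731 RPKM in the Nedd4+/+ library, or 11.8 and 3 read pairs. None of these 8 was past 2-fold with 0.5 RPKM added. In 5 of the 40 windows, those of Hjurp, Cenpe, Anln, Cenpf and Pttg1, the counting interval lay above 0, where 14.2% of the 6878 genes at or above the lowest level of the 40 had such a window.

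The 5 windows of highest mean level each had a neighbouring gene that starts within 2 kb on the opposite strand in GENCODE M21. Hmmr was far above the others, with 7.53 RPKM in the Nedd4-/- library and 11.1 RPKM in the Nedd4+/+ library upstream, or 46.8% and 51.1% of its own level. Nudcd2, its neighbour, stood at 17.2 against 22.3 RPKM. The window of Hmmr was the 1 of the 40 whose counting interval of the log2 ratio lay below 0 (-0.80 to -0.33), where 7.53% of the 6878 genes had such a window. That interval held the median gene ratio of all tested genes without pseudocount, -0.39, and the ratio of the gene Hmmr itself, -0.44. Kif20a had 1.79 RPKM in the Nedd4-/- library and 2.24 RPKM in the Nedd4+/+ library upstream beside Brd8 (8.61 against 11.9 RPKM), and Nusap1 had 1.53 RPKM in the Nedd4-/- library and 2.19 RPKM in the Nedd4+/+ library beside Oip5 (4.33 against 5.40 RPKM), itself a gene of centromere assembly. Aurka had 1.76 RPKM in the Nedd4-/- library and 1.36 RPKM in the Nedd4+/+ library beside Cstf1 (7.05 against 10.5 RPKM). The window of Foxm1 beside Rhno1 (3.67 against 3.87 RPKM) held 1.82 RPKM in the Nedd4-/- library and 1.60 RPKM in the Nedd4+/+ library, which was 75.8% and 55.2% of the level of Foxm1 and the highest share of any of the 40. Hjurp came next in mean level, with 1.71 RPKM in the Nedd4-/- library and 0.630 RPKM in the Nedd4+/+ library, but its neighbour Trpm8 was low at 0.363 against 0.161 RPKM. Without strand, reads of a gene and of its neighbour in such a window cannot be told apart. Of the 40 genes 15 had the start or end of another annotated gene within 2 kb, where 45.3% of tested genes did.

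**Figure D5:**
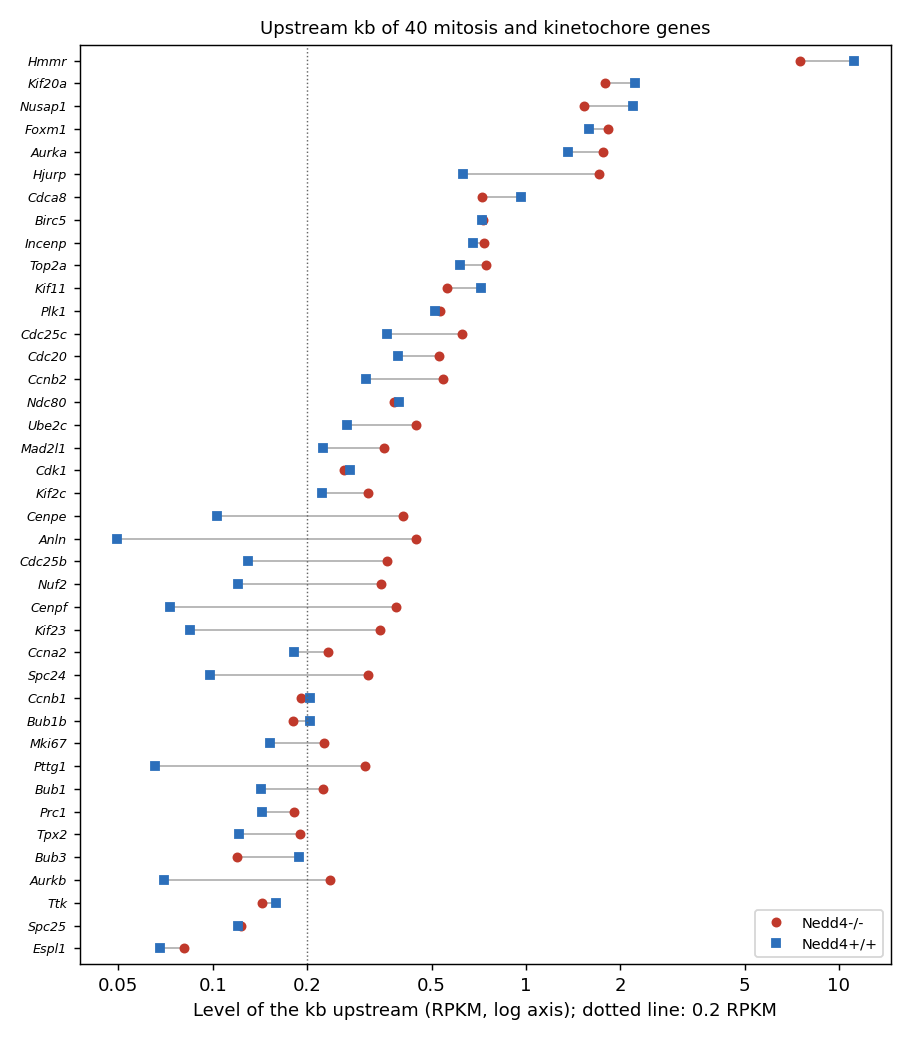
Level of the kb upstream of each of the 40 genes in RPKM (log axis) in the Nedd4-/- library (circles) and the Nedd4+/+ library (squares), 1 library each, ordered by mean; the dotted line marks 0.2 RPKM. Hmmr stands at 7.53 and 11.1 RPKM, and among the windows around the dotted line most circles lie right of their squares.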

How the data were processed

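The deposited gene values are RPKM of 1 RefSeq transcript per line, per the file headers. Per the submitters' processing notes, TopHat, Cufflinks and mm9 were used. Their versions, the strand setting and the counting rules are not stated there. The deposited upstream column was read as a ratio of the window to the gene's RPKM plus 0.0001. Multiplied back, it gave whole numbers of read bases within 0.05 in 100% of 3306 low windows (Nedd4-/-) and 99.99% of 8052 (Nedd4+/+). That also gave the library sizes. The plan had allowed that this column might be such a ratio, to be settled from the values.

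Read pairs are recovered bases over 202, with transcript lengths from GENCODE M21 (GRCm38). They are not independent molecules. Groups came from the titles. The ratio and interval code was tested on simulated data. The members, lists and rules were chosen with earlier results of these data known. All 40 members are named, plus from each further list up to 3 genes of largest relative ratio and the most abundant. Python 3.11.15, pandas 2.3.3 and scipy 1.17.1 were used.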

Additional observations from a re-analysis of the deposited data

How the results depend on the processing

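No paired analysis was possible because each genotype has 1 library. The count of genes past 2-fold was 0 in each direction under all alternatives run. The median log2 ratio of the 40 genes, -0.34 as deposited, was 0.047 with equal length-weighted sums, -0.0080 as TPM and 0.040 with upper quartile scaling, since the median of all genes became 0.027, -0.022 and 0.021. That all 40 genes were lower therefore holds for RPKM as deposited. Relative to those medians it was 0.020, 0.014 and 0.019, against -0.023 as deposited. With no minimum level the centre moved to 0.022, set by genes near 0, and the relative median was -0.36 with 40 of 40 below. The lists then had -0.29 (kinetochore and centromere), -0.46 (condensin and cohesin), -0.37 (APC/C), -0.35 (spindle), -0.31 (regulators), -0.25 (MuvB partners), -0.36 (replication) and -0.30 (G1 cyclins, 0.012 as deposited). Centred on 8 B cell markers, the 40 had 0.13 with 8 below, condensin and cohesin 0.024, APC/C 0.11, spindle genes 0.13 and replication 0.12. Upstream windows past 2-fold numbered 0 of 28 with 0.5 RPKM added (0.321% of all windows) and 1 of the 6 that passed a minimum of 1 RPKM (0.474% of all), against 8 of 28 (19.8% of all). A centre on genes of like transcript length, chosen after seeing the data, gave -0.017.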

Other observations

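Genes with a CHR match in the promoter window and those without were set side by side. The 25 genes with a match had a median relative value of -0.078, between -0.45 and 0.20, and the 7 genes without had 0.0078, between -0.15 and 0.25, so that the ranges overlapped. The 8 genes absent from the promoter table had a median of -0.0097, between -0.28 and 0.12. Ccnb1, the highest relative value of the 40, had CCAAT boxes and no CHR match. Spc25 (0.20) and Ttk (0.18), the next highest, had both, as did Mki67, the lowest. A link between the match and the ratio was not tested.

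Transcript length and log2 ratio had a Spearman correlation of -0.12 across the 40 genes (-0.049 without Mki67) and of -0.089 across 9231 tested genes of known length. Mean level and log2 ratio had -0.25 across the 40 and -0.37 across the tested genes. Both use ratios with 1 RPKM added, which itself draws low genes towards 0. These are descriptions across genes of the same libraries. By transcript length, the median relative value was -0.022 for the 12 genes of the 40 under 2000 nt, -0.0042 for the 17 from 2000 to 4000 nt and -0.092 for the 11 of at least 4000 nt, against 0.028, -0.0062 and -0.016 for all tested genes of those lengths. The longest class held genes on both sides, from Mki67 (-0.45) to Foxm1 (0.12).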
